A study of Sus scrofa with 37 samples.

Results

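BAFF and APRIL are a pair of related cytokines of the TNF family that keep mature B cells and antibody-secreting plasma cells alive. The system comprises 5 genes: the ligands BAFF (TNFSF13B) and APRIL (TNFSF13), and the receptors TACI (TNFRSF13B), the BAFF receptor (TNFRSF13C) and BCMA (TNFRSF17). Every probe set of the porcine snowball array that the array annotation gives to 1 of these genes was taken, which was 1 probe set per gene and 5 of 47845 probe sets in all. TNFSF13 stands in that annotation under its older name APRIL.

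BAFF is made mainly by monocytes, neutrophils and dendritic cells and circulates after cleavage by furin. The BAFF receptor binds BAFF alone and carries the survival signal of resting B cells. TACI and BCMA bind both ligands. TACI takes part in class switching and in the restraint of B cells, and BCMA is the survival receptor of plasma cells. APRIL also binds heparan sulfate chains on the cell surface. These roles are mainly known from mice and humans.

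Blood mononuclear cells (PBMC) of German Landrace pigs fed wheat, barley and soybean diets that held little (L), a medium amount (M) or much (H) digestible phosphorus were profiled on 37 arrays. At 63 days postnatum (dpn), the arrays came from 6 L, 5 M and 7 H pigs. At 28 dpn, when the experimental diets had not begun, all 19 pigs were sampled, and these arrays form the group R (6 later fed L, 6 M and 7 H). Males and females stood in every group, with 17 male and 20 female arrays in all. The question was how the 5 genes differed between the diets and from the state before the diets. All R arrays were taken at 28 dpn, and all arrays compared with R at 63 dpn. A difference from R therefore holds both diet and age, which cannot be told apart in it. The same holds for the change within a pig from 28 to 63 dpn. The diets at 63 dpn were compared at the same age.

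Values were log2 signals after RMA normalization, so that a difference of 1 is a 2-fold difference. Levels of different probe sets cannot be set against each other. The array holds 69 control probe sets of antigenomic sequence, which match no pig transcript by design, and their means spanned 1.44 to 9.46. The means of all 5 genes lay within that span, with 58 of these 69 below TNFRSF13C, 54 below TNFSF13B, 45 below TNFRSF13B, 42 below TNFRSF17 and 37 below TNFSF13. Whether each gene's signal stood above its own background was not tested. Array medians lay between 5.25 and 5.42, and the 63 dpn arrays of H pigs 12 and 11 stood at one end of the first principal component (13.8% of the variance). The means of all 10 B cell and all 7 T cell marker genes tested lay above the middle of the arrays. So did those of 7 of 8 monocyte, 4 of 4 plasma cell and 5 of 6 dendritic cell genes. Of 8 NK cell genes 6, and of 7 platelet genes all 7, lay above it. Of 9 neutrophil genes 8, and of 4 erythroid genes all 4, also lay above it, although the gradient used for PBMC removes most such cells. The values carry no detection calls, so whether a cell type was present was not tested. In whole PBMC, fewer cells of a type and less RNA per cell cannot be told apart. L, M and H were each compared with the same R arrays, so these comparisons are not independent of each other.

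Differences were tested with limma and Storey's q over 28086 probe sets that passed the variability and level filters, and a probe set was called when P and q were at most 0.05. Of the 5 genes 4 passed. TNFRSF13B did not, because its SD over all arrays was 0.188, and its values below come from the fit without the filter, over 47722 probe sets. In H against R, 0 of the 4 were called, beside 2.09% of all probe sets tested, and 1 of 4 had an unadjusted P under 0.05, beside 18.3% of all. In L against R it was 0 of 4 called (0.0249% of all) and 2 of 4 at the unadjusted level (9.23%). In M against R it was 0 called (0.0178%) and 0 at the unadjusted level (5.07%). No gene of the system therefore passed the test in any diet, and the differences below are values with their errors.

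**Figure D1:**
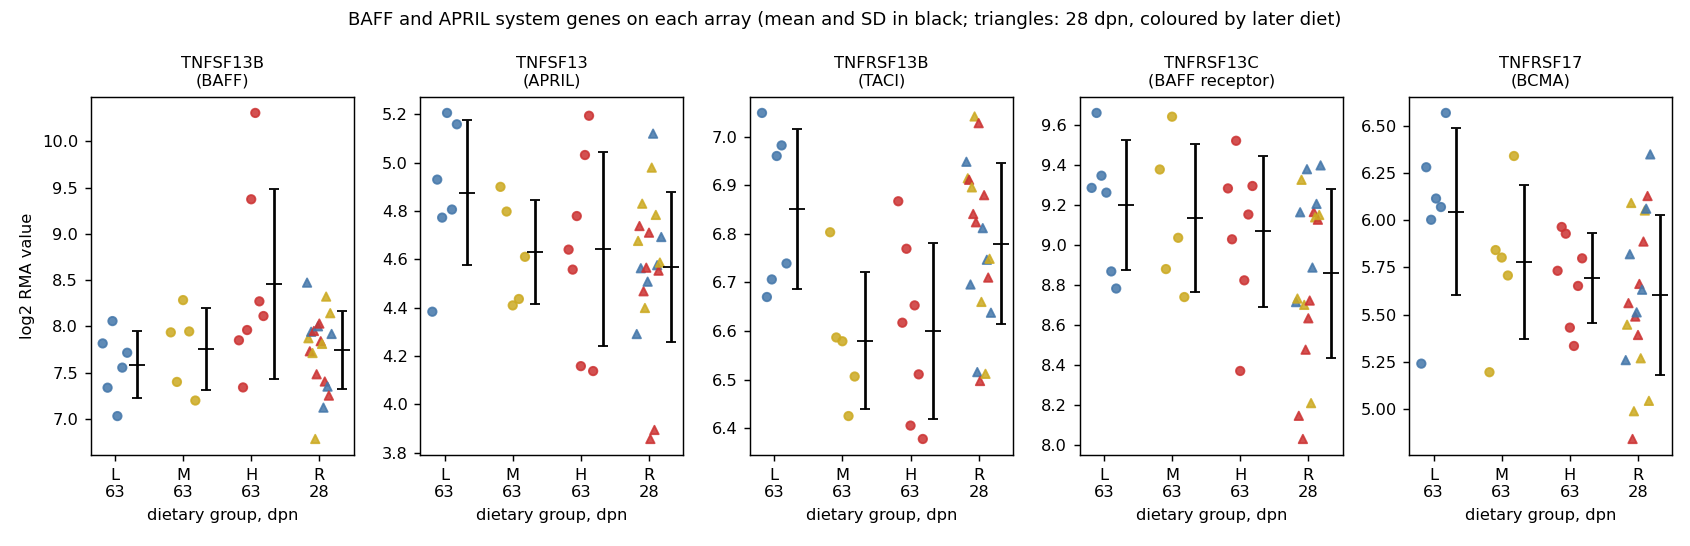
Log2 RMA value of each gene on every array (points), by dietary group at 63 dpn and for R at 28 dpn (triangles, coloured by later diet), with mean and SD in black. TNFSF13B in H ran from 7.34 to 10.31, with 2 pigs above every other array, whereas the groups overlapped for all 5 genes.

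BAFF was the gene with the widest spread. TNFSF13B averaged 7.58 ± 0.36 in L (SD, n = 6), 7.75 ± 0.44 in M (n = 5), 8.46 ± 1.02 in H (n = 7) and 7.74 ± 0.42 in R (n = 19). In H the lowest, median and highest pig lay at 7.34, 8.11 and 10.31, against 6.78, 7.84 and 8.47 in R. H pigs 12 and 11, at 10.31 and 9.37, lay above the highest of all other arrays, whereas the other 5 H pigs lay within the range of R.

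TNFSF13B in H exceeded R by 0.72 on the log2 scale (SE 0.24, limma, q = 0.0714), a ratio of 1.65, and 6 of 7 H pigs lay above the R mean. The 95% interval ran from 0.24 to 1.21. It rests on the same spread for all groups, although the SD was 1.02 in H and 0.42 in R. L against R gave -0.16 (interval -0.68 to 0.35) and M against R gave 0.02 (interval -0.53 to 0.57), so that neither differed from R beyond its error.

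The H value depended on the treatment of single pigs. With each H pig set against its own 28 dpn array (pig as a fixed block), the difference was 0.79 with q = 0.031, which passed the threshold. It also passed with a stricter filter (q = 0.0473) and without the array of L pig 1 at 28 dpn (0.76, q = 0.0483), of H pig 3 at 63 dpn (0.85, q = 0.0393) or of H pig 6 at 63 dpn (0.90, q = 0.0259). Without the 63 dpn array of pig 12, TNFSF13B differed by 0.40 (q = 0.293), and without those of pigs 11 and 12 by 0.18 (SE 0.19, q = 0.563). Down-weighting of deviating arrays gave 0.37 (q = 0.272). The sign stayed positive in all 37 fits that left out 1 array and in all 14 alternatives. The fixed-block fit also used the same spread for all diets. The SD of the within-pig changes was 0.97 in H, 0.35 in L and 0.53 in M.

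**Figure D2:**
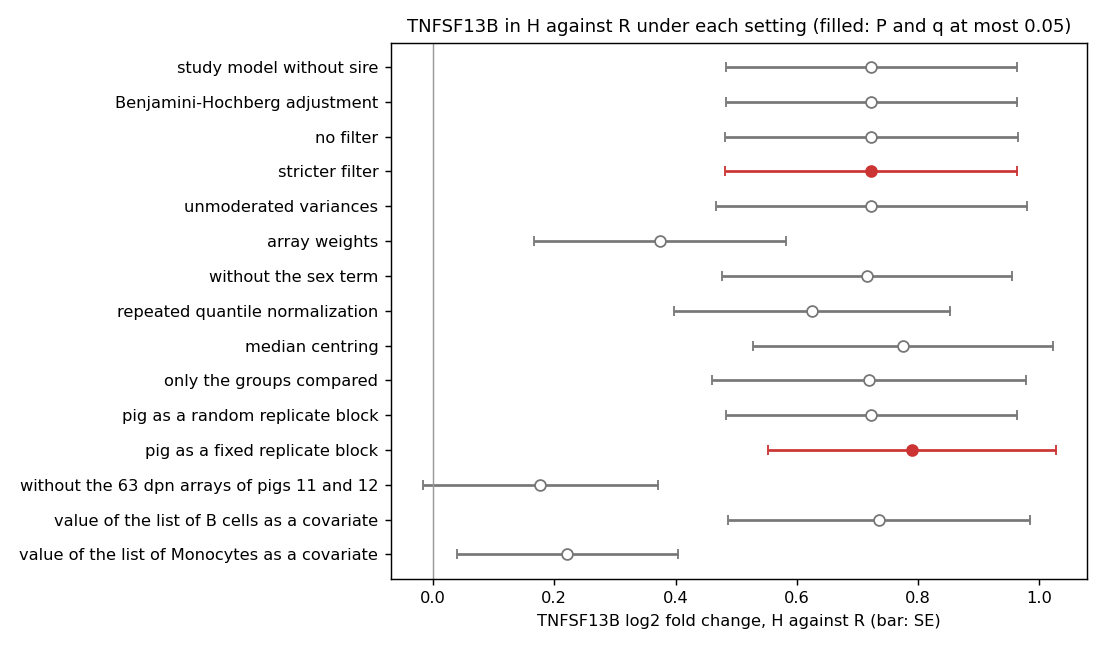
TNFSF13B log2 fold change of H against R (points, bars are SE) under the model used and 14 alternatives, filled where P and q were at most 0.05. Values run from 0.18 without pigs 11 and 12 to 0.79 with pig as a fixed block, and 2 are filled.

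Between the diets at 63 dpn, no member and no probe set at all was called by limma. At an unadjusted P under 0.05, 1 of 4 members differed in H against L (8.86% of all probe sets) and in H against M (9.76%), in both cases TNFSF13B, and 0 of 4 in L against M (3.28%). TNFRSF13B is not among these 4. In the limma fit without the filter its unadjusted P was 0.0186 in H against L and 0.0203 in L against M. TNFSF13B in H exceeded L by 0.89 (SE 0.31, q = 0.43) and M by 0.70 (SE 0.33, q = 0.371). Without the 63 dpn array of pig 12 these TNFSF13B differences were 0.57 and 0.37.

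Each pig was also its own control. TNFSF13B was higher at 63 dpn than at 28 dpn in 6 of 7 H pigs, with a mean change of 0.79 and a range from -0.61 in pig 6 to 2.47 in pig 12. It was higher in 2 of 6 L pigs (mean change -0.22) and in 2 of 5 M pigs (mean change -0.22). The test of the change in H against that in L and M gave 0.90 (SE 0.38, limma, q = 0.101), and 0 of 4 members were called there, beside 0% of all probe sets and 20.1% at an unadjusted P under 0.05. Without the 63 dpn arrays of pigs 11 and 12 this TNFSF13B difference was 0.35 (q = 0.369).

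**Figure D3:**
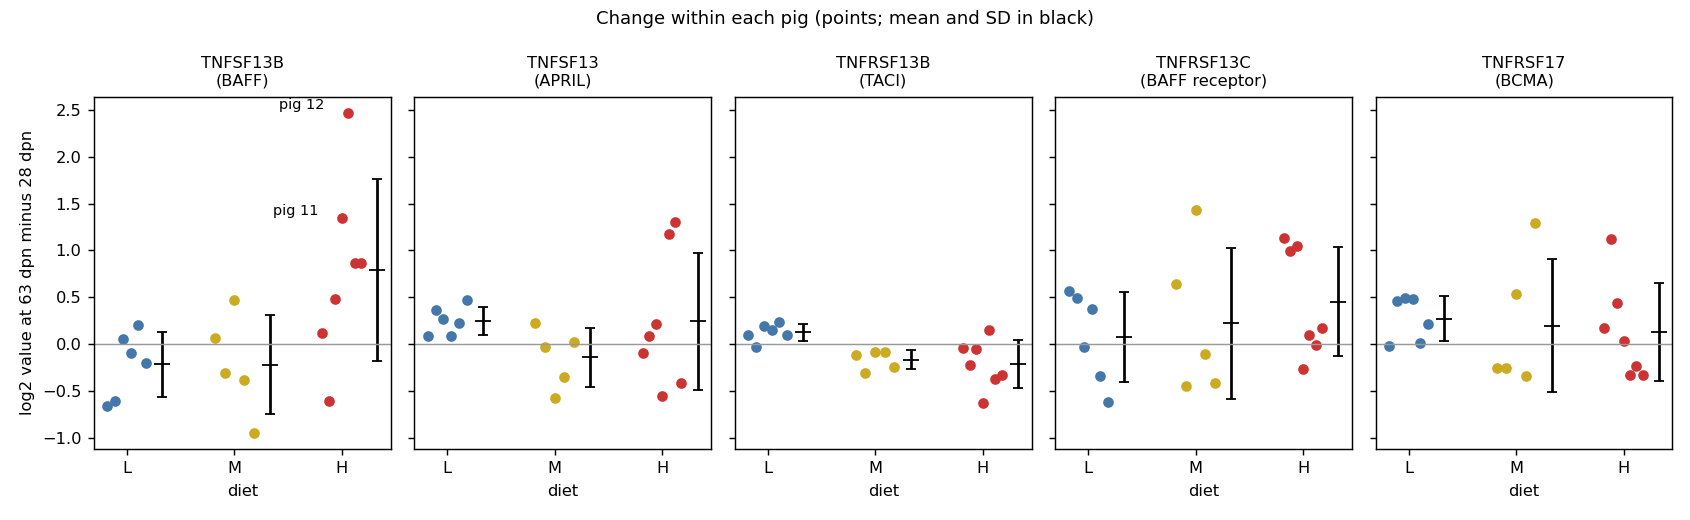
Change of each gene within each pig, 63 dpn minus 28 dpn on the log2 scale (points), by diet, with mean and SD in black. For TNFSF13B the H pigs lie mostly above 0 and pigs 12 and 11 highest at 2.47 and 1.34, and for TNFRSF13B all 5 M pigs lie below 0.

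APRIL showed smaller differences, with its highest mean in L. TNFSF13 averaged 4.88 ± 0.30 in L (SD, n = 6), 4.63 ± 0.22 in M (n = 5), 4.64 ± 0.40 in H (n = 7) and 4.57 ± 0.31 in R (n = 19). The L pigs lay at 4.38, 4.87 and 5.21 (lowest, median, highest), against 3.86, 4.58 and 5.12 in R, and 5 of 6 L pigs lay above the R mean.

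TNFSF13 in L exceeded R by 0.31 (SE 0.15, limma, q = 0.445). Within pigs, TNFSF13 was higher at 63 dpn in 6 of 6 L pigs, with changes from 0.09 to 0.47, against 2 of 5 M pigs and 4 of 7 H pigs. The H pigs were the most spread, from -0.55 in pig 11 to 1.30 in pig 15. The mean TNFSF13 changes were 0.25 in L, -0.14 in M and 0.24 in H. H against R gave 0.07 (interval -0.21 to 0.35) and M against R 0.05 (interval -0.27 to 0.38), so that the paired value in M had the other sign and that in H was larger. On the assembly Sscrofa11.1, TNFSF13 directly follows TNFSF12, the gene of the cytokine TWEAK. The 2 TNFSF12 probe sets correlated with TNFSF13 at r = 0.591 and r = 0.243 over 37 arrays centred by diet and age, and they differed between H and R by 0.05 (q = 0.584) and -0.35 (q = 0.135).

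The BAFF receptor had a higher mean at 63 dpn than at 28 dpn. TNFRSF13C averaged 9.20 ± 0.33 in L (SD, n = 6), 9.14 ± 0.37 in M (n = 5), 9.07 ± 0.38 in H (n = 7) and 8.86 ± 0.42 in R (n = 19). The 18 arrays at 63 dpn lay at 8.37, 9.21 and 9.66 (lowest, median, highest), against 8.03, 8.89 and 9.40 in R, and 14 of 18 lay above the R mean.

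Over all diets, TNFRSF13C was 0.26 higher at 63 than at 28 dpn (SE 0.12, limma, q = 0.254). In this age comparison 0 of 4 members were called (1.09% of all probe sets), and 1 of 4 had an unadjusted P under 0.05 (13.4%). Within pigs, TNFRSF13C was higher at 63 dpn in 10 of 18, in 3 of 6 L, 2 of 5 M and 5 of 7 H pigs, with mean changes of 0.08 in L, 0.22 in M and 0.45 in H. The differences from R were 0.34 in L, 0.27 in M and 0.21 in H, with q of 0.496, 0.999 and 0.34. The paired changes thus ran in the opposite order from these differences, and with pig as a fixed block TNFRSF13C was not called in any diet either (q = 0.968 in L, 0.9999 in M and 0.105 in H).

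The later diet groups also had unlike means before the diets. At 28 dpn, TNFRSF13C averaged 9.13 ± 0.27 in the 6 pigs later fed L, 8.88 ± 0.41 in the 6 later fed M and 8.61 ± 0.44 in the 7 later fed H. The means fitted in limma spanned 0.51 (F test, q = 0.287). The other members spanned 0.09 to 0.32 at 28 dpn, and 0 of 4 members were called among the later diet groups, beside 0% of all probe sets and 11.3% at an unadjusted P under 0.05.

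BCMA had its highest mean in L. TNFRSF17 averaged 6.05 ± 0.44 in L (SD, n = 6), 5.78 ± 0.41 in M (n = 5), 5.69 ± 0.24 in H (n = 7) and 5.60 ± 0.42 in R (n = 19). L pigs lay at 5.24, 6.09 and 6.57 (lowest, median, highest), against 4.84, 5.56 and 6.35 in R. 5 of 6 L pigs lay above the R mean, and pig 1 was the exception.

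TNFRSF17 in L exceeded R by 0.45 (SE 0.17, limma, q = 0.341), a ratio of 1.36, and leaving out 1 array at a time gave 0.36 to 0.59 for TNFRSF17. With each L pig set against its own 28 dpn array, the TNFRSF17 difference was 0.27 (SE 0.20), with 5 of 6 L pigs higher at 63 dpn. H against L at 63 dpn gave -0.37 (SE 0.21, q = 0.587), and all 7 H pigs lay below the L mean although the ranges overlapped. H against R gave 0.08 (interval -0.26 to 0.41) and M against R 0.16 (interval -0.22 to 0.54).

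TACI had the narrowest spread of the 5 genes, and its mean was highest in L. TNFRSF13B averaged 6.85 ± 0.16 in L (SD, n = 6), 6.58 ± 0.14 in M (n = 5), 6.60 ± 0.18 in H (n = 7) and 6.78 ± 0.17 in R (n = 19). The 69 antigenomic control probe sets had SDs from 0.0933 to 0.392 over the arrays, and 32 of these SDs were below that of TNFRSF13B.

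Within pigs, TNFRSF13B was lower at 63 dpn in 5 of 5 M pigs (-0.31 to -0.08) and in 6 of 7 H pigs (-0.62 to 0.16), and higher in 5 of 6 L pigs (-0.03 to 0.24). The M pigs lay at 6.42, 6.51, 6.58, 6.59 and 6.80, and all 6 L pigs, from 6.67 to 7.05, lay above their mean while the ranges overlapped. In the fit without the filter, L exceeded M by 0.26 (SE 0.11, limma, q = 0.9999), and H against L gave -0.25 (SE 0.10, q = 0.552). Against R, TNFRSF13B differed by -0.18 in H (SE 0.08, q = 0.171), by -0.19 in M (SE 0.09, q = 0.9996) and by 0.07 in L (SE 0.08, q = 0.791). In that fit 0.895% of probe sets were called in H against R, 0.0105% each in L and M against R, and 0% between the diets. Shares at the unadjusted level were not computed for that fit. Leaving out 1 array at a time kept TNFRSF13B negative in H against R (-0.22 to -0.13) and in M against R (-0.24 to -0.14).

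**Figure D4:**
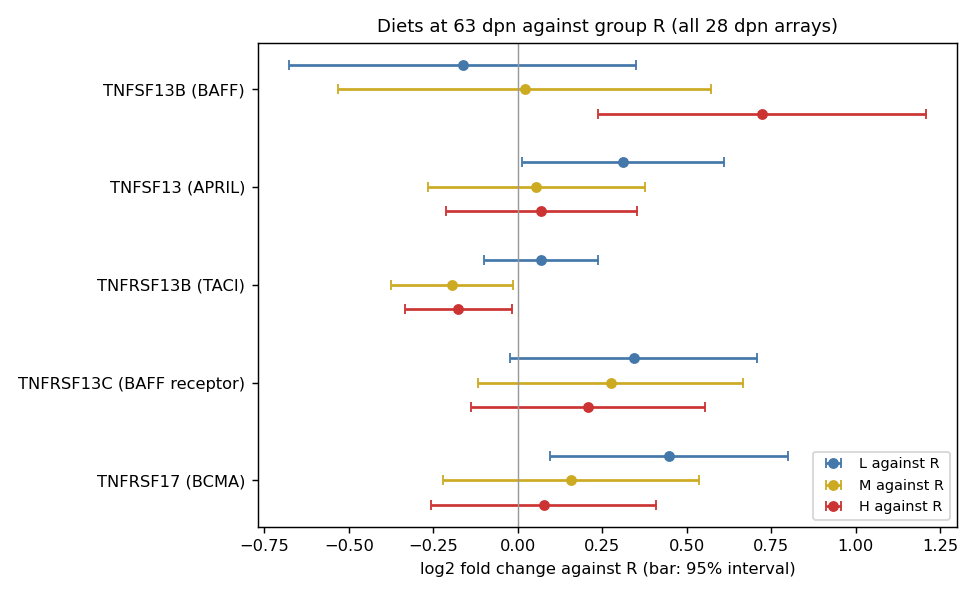
Log2 fold change of L, M and H at 63 dpn against R for each gene (points, bars are 95% intervals). The TNFSF13B point of H lies at 0.72 with an interval from 0.24 to 1.21, and the TNFRSF17 point of L at 0.45 with an interval from 0.09 to 0.80.

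The sexes were set against each other over all arrays, with diet and age in the model. Males against females gave 0 of 4 members called (0.0855% of all probe sets) and 0 of 4 at an unadjusted P under 0.05 (3.59%). BCMA came nearest, with a TNFRSF17 mean of 5.60 ± 0.34 in 17 male arrays and 5.81 ± 0.45 in 20 female arrays, a fitted difference of -0.22 (SE 0.12). The fitted differences of the other members lay between -0.13 and 0.15.

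How far the genes followed the cells in the preparation was described through marker lists. The value of a list is the average of the centred log2 values that its genes had on that array. Monocyte genes (8 tested) had a list value of 0.36 in H (range -0.24 to 1.48), against -0.10 in R (range -0.84 to 0.56), and pig 12 was the highest of all arrays. Of the 8 monocyte genes, 2 were called in H against R, beside 2.09% of all probe sets. CD14, a co-receptor for lipopolysaccharide, rose by 0.78 (q = 0.0478) and CSF2RA, the GM-CSF receptor alpha chain, by 0.61 (q = 0.0303). The median difference of the 8 genes was 0.52, against -0.02 over all probe sets. Without the 63 dpn arrays of pigs 11 and 12, 0 of the 8 were called, the median was 0.33, and CD14 differed by 0.36 (q = 0.353) and CSF2RA by 0.32 (q = 0.273). Neutrophil genes (9 tested) had a list value of 0.31 in H (range -0.22 to 1.54), against -0.08 in R (range -0.59 to 0.43). None of these 9 was called by limma. At an unadjusted P under 0.05, 5 of the 9 were higher and 1 lower, beside 11% and 7.36% of all probe sets. The median of the 9 genes was 0.49, and 0.06 without pigs 11 and 12. Of the plasma cell (4), dendritic cell (6), T cell (7), NK cell (8), erythroid (4) and platelet (7) genes tested, 0 were called in H against R.

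TNFSF13B followed both lists between pigs of the same age and diet. After subtraction of diet means, its correlation with the monocyte list was r = 0.803 at 63 dpn (n = 18, rho = 0.573, permutation p = 0.00024 for r and 0.0147 for rho, adjusted 0.00126 and 0.0534). Without the 2 arrays whose list values, after subtraction of diet means, lay farthest from the median, r was 0.651. Pig 11 was still in that value. At 28 dpn it was r = 0.756 (n = 19, rho = 0.709, permutation p = 0.00013 and 0.00104, adjusted 0.00126 and 0.0101), and 0.534 without the 2 farthest arrays. With the neutrophil list TNFSF13B gave r = 0.82 at 63 dpn (rho = 0.637) and 0.753 at 28 dpn (rho = 0.619), each with an adjusted permutation p of 0.00126 for r and 0.0267 for rho, and 0.523 and 0.707 without the 2 farthest arrays. These are among 29 relations computed, over which the p values were adjusted by the Benjamini-Hochberg method. Both lists were highest on the 63 dpn array of H pig 12, at 1.48 and 1.54, and the correlation between the lists was not computed. The relations of TNFSF13B with them can therefore not be counted as separate results. With the monocyte list as a covariate, TNFSF13B in H exceeded R by 0.22 (SE 0.18, q = 0.694) in place of 0.72, and with the B cell list by 0.74. What share of the H difference goes with cell numbers was not tested.

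**Figure D5:**
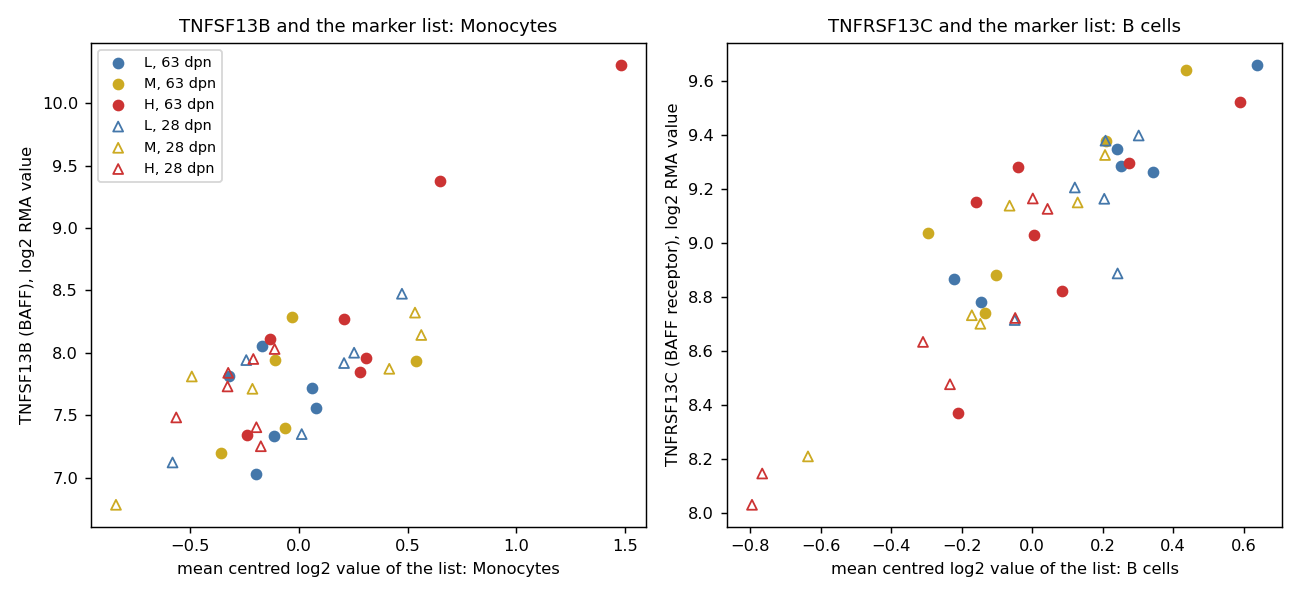
TNFSF13B against the monocyte list (left) and TNFRSF13C against the B cell list (right) on each array, log2 RMA value against the mean centred log2 value of the list, filled at 63 dpn and open at 28 dpn. H pigs 12 and 11 stand at the upper right for TNFSF13B, while the TNFRSF13C points follow the B cell list at both ages.

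The BAFF receptor followed the B cell markers. The B cell list had a value of 0.08 in H (range -0.21 to 0.59), against -0.09 in R (range -0.80 to 0.30). Of its 10 genes 1 was called in H against R, beside 2.09% of all probe sets. This was VPREB3, a gene of B cell development. It rose by 0.68 (q = 0.0136), and by 0.66 (q = 0.118) without the 63 dpn arrays of pigs 11 and 12. VPREB3 averaged 7.33 ± 0.39 in L, 7.22 ± 0.20 in M, 7.33 ± 0.30 in H and 6.64 ± 0.31 in R. Its value was higher on each diet than in R, by 0.69 in L (q = 0.0564) and 0.57 in M (q = 0.719), and over all diets VPREB3 rose by 0.64 at 63 dpn against 28 dpn (q = 0.000296). TNFRSF13C correlated with the list of 10 B cell genes at r = 0.826 at 63 dpn (n = 18, rho = 0.853, permutation p = 2e-05 for both, adjusted 0.00029). At 28 dpn it was r = 0.909 (n = 19, rho = 0.865, permutation p = 1e-05, the smallest that 100000 permutations can give, for r and 2e-05 for rho, adjusted 0.00029). Without the 2 farthest arrays r was 0.765 and 0.852. The B cell list itself stood at 0.17 in pigs later fed L, -0.11 in those later fed M and -0.30 in those later fed H at 28 dpn, the same order as TNFRSF13C. With the B cell list as a covariate, the age difference of TNFRSF13C over all diets was 0.05 (SE 0.07) in place of 0.26. That of L against R was 0.01 in place of 0.34. Because TNFRSF13C rose and fell with this list, such a fit cannot tell the number of B cells from RNA per cell. What share of these differences goes with cell numbers was not tested.

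For BCMA and TACI the correlations with the B cell list were lower. TNFRSF17 gave r = 0.56 at 28 dpn (n = 19, rho = 0.593, permutation p = 0.0126 and 0.00867, adjusted 0.0456 and 0.0359), and 0.439 without the 2 farthest arrays, but -0.06 at 63 dpn (n = 18, rho = 0.065, permutation p = 0.823 and 0.796, adjusted 0.884 and 0.828). The differences between the ages and between the receptors were not tested. TNFRSF13B gave r = 0.153 at 63 dpn and -0.206 at 28 dpn (rho = 0.148 and -0.309, permutation p = 0.539 and 0.398 for r and 0.559 and 0.2 for rho, adjusted 0.67 and 0.543 for r), and 0.207 and -0.401 without the 2 farthest arrays. Of the plasma cell list 4 of 9 genes could be tested, and TNFRSF17 correlated with it at -0.0446 at 63 dpn and 0.382 at 28 dpn (rho = -0.123 and 0.347, permutation p = 0.858 and 0.106 for r, adjusted 0.888 and 0.223), and at 0.166 and 0.379 without the 2 farthest arrays.

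The levels at 63 dpn were also set against those of the same pig at 28 dpn. The correlation over 18 pigs, after subtraction of diet means, was 0.298 for TNFSF13B, -0.28 for TNFSF13, 0.406 for TNFRSF13B, -0.364 for TNFRSF13C and 0.15 for TNFRSF17. Spearman's rho ran from -0.36 to 0.472, and r without the 2 farthest arrays from -0.265 to 0.482. None passed a permutation test (p from 0.0939 to 0.554 for r, adjusted 0.223 to 0.67). Among each other, the 5 genes correlated between -0.363 (TNFRSF13B and TNFRSF17) and 0.358 (TNFRSF13C and TNFRSF17) over the 37 arrays centred by diet and age.

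The genes with the most similar pattern were taken as the 5 named genes with the highest Pearson correlation over the 37 arrays, each centred by diet and age. For TNFSF13B these were DHRS9 (r = 0.945), the chemokine receptor gene CCR1 (0.941), ABHD2 (0.939), MXD1 (0.935) and RBM47 (0.929), and without the 63 dpn arrays of pigs 11 and 12 the same 5 gave 0.884 to 0.907. For TNFRSF13C they were INPP5D (0.882), encoding the lipid phosphatase SHIP-1, CD79B (0.878), a chain of the B cell receptor complex, the MHC class II gene SLA-DRB1 (0.858), the B cell transcription factor PAX5 (0.857) and MYO1G (0.849). CD79B and PAX5 are also members of the B cell list. The other members had no partner as close, the highest being GYG2 for TNFRSF13B (0.724), ACTL7B for TNFSF13 (0.684) and PCGF5 for TNFRSF17 (0.65). All arrays share the same normalization, and arrays of 1 pig share the animal.

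The pathway around the receptors was described by a list of 40 genes, of which 24 could be tested. The 40 genes include furin, the TRAF adaptors, the kinases and NF-kB subunits of both NF-kB branches and BCL2 family members. BTK and SYK of B cell receptor signaling and the regulators of plasma cell formation also belong to it. Of the NF-kB subunits only NFKB2 could be tested, and of the TRAF adaptors only TRAF3 and TRAF5. The counts below thus do not cover the other subunits and adaptors. In H against R, 0 of 24 were called by limma, beside 2.09% of all probe sets. At an unadjusted P under 0.05, 8 of 24 were higher and 2 lower, beside 11% and 7.36% of all probe sets. Of the 24 differences 19 were positive, beside 45.5% of all. The median was 0.17, against -0.02 over all probe sets, and 0.13 without pigs 11 and 12, when 4 were at the unadjusted level. In L against R the median was 0.02 and in M against R -0.01, also with 0 of 24 called (0.0249% and 0.0178% of all probe sets). At the unadjusted level there were 4 in L and 0 in M, beside 9.23% and 5.07% of all.

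In H against R, the 4 pathway genes of lowest P were 3 signaling genes with higher values and 1 survival gene with a lower one. IKBKB, the kinase subunit of canonical NF-kB signaling, differed by 0.30 (SE 0.10, q = 0.0775). CD40LG, the T cell ligand of CD40, differed by 0.41 (SE 0.14, q = 0.0783), and the kinase SYK by 0.42 (SE 0.15, q = 0.0871). BCL2L1, encoding the survival protein BCL-xL, averaged 9.93 ± 0.39 in H and 10.53 ± 0.57 in R, a difference of -0.60 (SE 0.21, q = 0.0824). All 4 kept their sign without the 63 dpn arrays of pigs 11 and 12, but with higher q. The differences were then 0.16 for IKBKB (q = 0.425), 0.41 for CD40LG (q = 0.266), 0.33 for SYK (q = 0.347) and -0.48 for BCL2L1 (q = 0.335).

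BTK and SYK had the lowest P of the pathway list in the test of the change with age. BTK, the kinase whose loss arrests B cell development in humans, averaged 8.04 in L, 7.97 in M and 8.17 in H at 63 dpn. At 28 dpn it was 8.20 in pigs later fed L, 8.13 in those later fed M and 7.64 in those later fed H, so that the H pigs were lowest before the diets. The change in H exceeded that in L and M by 0.70 for BTK (SE 0.17, q = 0.0537) and 0.74 for SYK (SE 0.20, q = 0.0569), and neither was called. Without the 63 dpn arrays of pigs 11 and 12 it was 0.69 and 0.65 (q = 0.126 for both).

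The 24 testable TNF ligands and receptors beside the 5 genes share CD40, CD40LG and TNFSF12 with the pathway list. Of these 24, 0 were called in any diet against R. Over all probe sets the called shares were 2.09% in H, 0.0249% in L and 0.0178% in M. At an unadjusted P under 0.05 in H against R, 8 of these 24 were higher and 2 lower. These are the same counts as in the pathway list, beside 11% and 7.36% of all probe sets. Of the 24 differences 15 were positive, with a median of 0.10. Without pigs 11 and 12 the median was 0.08, and 3 were higher and 0 lower at that level. In the age comparison 1 of these 24 was called, beside 1.09% of all probe sets. This was TNFRSF11A, the receptor RANK, which rose by 0.37 at 63 dpn (SE 0.09, q = 0.0336). It averaged 7.64 ± 0.20 in L, 7.52 ± 0.26 in M, 7.64 ± 0.20 in H and 7.23 ± 0.31 in R, and in H against R it differed by 0.42 (q = 0.0515). The TNF receptors TNFRSF1B and TNFRSF1A differed by 0.53 and 0.49 in H against R (q = 0.0796 and 0.087). Without pigs 11 and 12 they differed by 0.16 and 0.18 (q = 0.534 and 0.484).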

How the data were processed

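The authors hybridised RNA of PBMC to porcine snowball arrays, 1 array per sample, scanned them (the submitters' processing notes list GCOS 1.1.1) and applied RMA. The log2 values that the authors deposited were used unchanged. The genome build behind the array was not given in the sources used here. The values carry no detection calls. The number of arrays limits the precision. Diet, age, sex and pig number came from the sample labels, and 0 columns belonged to no sample. The labels hold 19 pigs, 18 of them at both ages (pig 8, later fed M, at 28 dpn only).

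The members and all gene lists were chosen with earlier results of these data known. Genes were named through the array annotation, with 428 older symbols on the array replaced by current ones. After removal of 123 control probe sets, the study's filter was applied (SD over 0.23 and mean over 2.5 across the arrays). Tests ran in limma 3.58.1 under R 4.3.3 (lmFit and eBayes, all 37 arrays). R, L, M and H with sex gave the comparisons with R, and 6 groups of diet and age with sex gave the others. The study's model also had the sire, which the labels do not give. Litter and pen did not enter. Each of these fits used the same spread for all groups, also where their SDs differed. Storey's q was computed with a spline of 3 degrees of freedom over lambda values every 0.05 between 0.05 and 0.95, and a call needed P and q of at most 0.05. The P, q and intervals (95%) in the text come from these limma fits unless a permutation test is named. The fits were also run on simulated data. The simulated noise was normal, independent between arrays and of the same spread in all groups. That check therefore does not cover groups of unequal spread, deviating arrays or arrays of the same pig.

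Arrays with the same number carry the same diet and sex and, per the labels, are 1 animal, which makes them pairs. The common within-pig correlation was -0.00548, and pig entered as a block only among the alternatives. Every list gene was represented by its passing probe set with the highest mean. Named were all members, for each list up to 4 genes by lowest P in H against R and up to 2 in each other comparison, and the 5 genes most like each member. Lists were counted and not tested. Alternatives were Benjamini-Hochberg adjustment, no filter or a stricter one (SD over 0.3, mean over 4), unmoderated variances, array weights, no sex term, repeated quantile normalization, median centring, only the groups compared, pig as a random or fixed block, leaving out arrays, and cell lists as covariates.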

Additional observations from a re-analysis of the deposited data

How the results depend on the processing

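In H against R, 0 of the 4 tested members were called by limma, and 1 (TNFSF13B) was called with the stricter filter and 1 with pig as a fixed replicate block, where TNFSF13B was 0.79 with q = 0.031. Leaving out 1 array at a time gave 0 to 1. In every other comparison and alternative the count stayed at 0, with the block too. Differences of the members with an unadjusted P under 0.05 kept their sign in all alternatives. Over all probe sets, the calls in H against R were 588, against 226 with Benjamini-Hochberg adjustment, 123 with array weights, 271 after repeated quantile normalization, 1084 after median centring, 156 with only the groups compared, 2935 with pig as a fixed block, 4 without the 63 dpn arrays of pigs 11 and 12, 115 with the B cell list and 7 with the monocyte list as a covariate. The age comparison had 307 calls, against 197 with Benjamini-Hochberg adjustment, 692 with array weights and 93 with the B cell list as a covariate. L against R had 7, against 23 with the stricter filter, 175 with array weights, 25 after repeated quantile normalization, 13 with only the groups compared, 1 with pig as a fixed block, 41 without pigs 11 and 12 and 75 with the monocyte list. M against R had 5, against 3 with only the groups compared and 0 with pig as a fixed block. The change with age in H against L and M had 0, against 47 without the filter, 426 with unmoderated variances, 224 with array weights, 51 without sex, 498 after median centring and 1 with pig as a fixed block. The later diet groups at 28 dpn had 0, against 90 with array weights, and the sexes 24, against 16 with the stricter filter. Leaving out 1 array also moved these counts. H against R had 14 to 1360 calls, with 14 without H pig 12, 90 without H pig 11, 162 each without H pigs 9 and 15, 1295 without H pig 6 and 1360 without H pig 3 (63 dpn), and 274 to 1139 without 1 R array. L against R had 1 to 114 (114 without L pig 17 and 1 without L pig 10 or 14 at 63 dpn), M against R 2 to 5 (2 without M pig 2 or 16 at 63 dpn), the age comparison 154 to 528 (154 without M pig 13 at 28 dpn or M pig 16 at 63 dpn, 528 without L pig 17 at 63 dpn) and the change with age 0 to 2227, with 2227 without M pig 13, 1723 without H pig 3 and 1554 without L pig 10 at 63 dpn, and 1565 without H pig 12 at 28 dpn. The covariates were added between the diets at 63 dpn after seeing the data. A mean over the probe sets of a gene is the same value, as each member has 1. Pig as a fixed block gives no value between diets, at 28 dpn or between sexes, and TNFRSF13B lies outside the stricter filter. The number of arrays limits what could be detected.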
